A study of Caenorhabditis elegans with 4 samples.

Results

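The regions described here are the binding peaks of DPL-1, a transcription factor, on chromosome IV of the nematode *Caenorhabditis elegans*, measured by ChIP-seq in larvae of the first stage (fed L1). They are the entries of the deposited combined peak list whose chromosome is IV, taken by name alone and not by strength. No interval on IV was entered more than once, so the 521 entries are 521 regions, of 3192 distinct regions in the whole list. The combined list was made from both ChIP replicates, and each replicate also has its own, longer list, with 4516 peaks on IV in replicate 1 and 5341 in replicate 2.

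All 4 libraries of the study, 2 ChIP and 2 input, came from hermaphrodites of strain YL448, raised at 20 °C on the bacterial strain HB101 and crosslinked with 2% formaldehyde. The strain has the unc-119(ed3) allele on chromosome III and the transgene vrIs83, which restores *unc-119* and expresses DPL-1 joined to GFP and 3xFlag from the promoter of *ges-1*, an esterase gene of the gut. ChIP used antibodies to GFP, so the peaks concern tagged DPL-1 made under an intestinal promoter in whole larvae. The listed genotype holds no mutation of the native *dpl-1* gene. No untagged strain is among the libraries, and the inputs were not analysed here. The peak lists carry no read counts, so the depth behind a peak is unknown. Nothing in the labels says that the replicates came from separate cultures, so the spread between them may be technical.

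DPL-1 is the worm DP protein. DP proteins pair with E2F proteins to bind promoters of genes for DNA replication and the cell cycle, and in worms DPL-1 and its E2F partner EFL-1 also belong to the DRM complex, which keeps many such genes low in cells that no longer divide. Intestinal nuclei of the larva go through rounds of DNA replication without cell division. Worm autosomes have centres that are rich in conserved genes and recombine little, flanked by arms that hold more repeats and recombine often. Chromosome IV is also known for the dense clusters of small genes for 21U-RNAs, the worm piRNAs, whose positions were not used here. The *dpl-1*, *ges-1* and *unc-119* genes lie on chromosomes II, V and III, so none of the genes used to build the transgene is on IV. The positions of these native genes do not tell where the transgene was inserted.

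Peaks of any list spanned chromosome IV from position 23801 to position 17492070 of WormBase build WS220, or 17.5 Mb. By peak midpoint, the span was divided into a left arm with the first 25%, up to position 4390868, a centre with the middle 50%, up to position 13125003, and a right arm with the last 25%. These arms are defined by length, not by genetic maps. The left arm held 154 combined peaks, the centre 291 and the right arm 76. The left arm was thus as densely filled as the centre, with 35.3 peaks per Mb (95% exact Poisson interval 29.9 to 41.3) against 33.3 (29.6 to 37.4). The right arm had 17.4 peaks per Mb (13.7 to 21.8), and its interval lay below both of the others. The right arm had 0.49 times the density of the left arm (95% exact interval 0.37 to 0.65) and 0.52 times that of the centre (0.40 to 0.67). These intervals, like all below, cover the counting of peaks only and treat peaks as independent, which neighbours are not.

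The fall in density began inside the centre and was steep. Counted in steps of 5% of the span, each of the first 14 steps held 26 to 35 combined peaks, and each of the last 6 held 8 to 21. The split into 14 and 6 steps was placed at the observed drop, so the lack of overlap between those ranges follows in part from that choice. The intervals of single steps did overlap across the split, such as 19.4 to 43.6 per Mb for step 3 and 14.9 to 36.8 for step 17. In whole megabases, the 12 windows up to position 12000000 held 29 to 41 peaks each, and the 5 full windows after it held 12 to 24. Up to that position the density was 35.2 peaks per Mb (31.9 to 38.7), and beyond it 18.2 (14.8 to 22.1). The low stretch reached to the end of the chromosome, where the last 0.492 Mb had 10 peaks, or 20.3 per Mb. The division at 12 Mb was chosen after these counts had been seen.

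**Figure D1:**
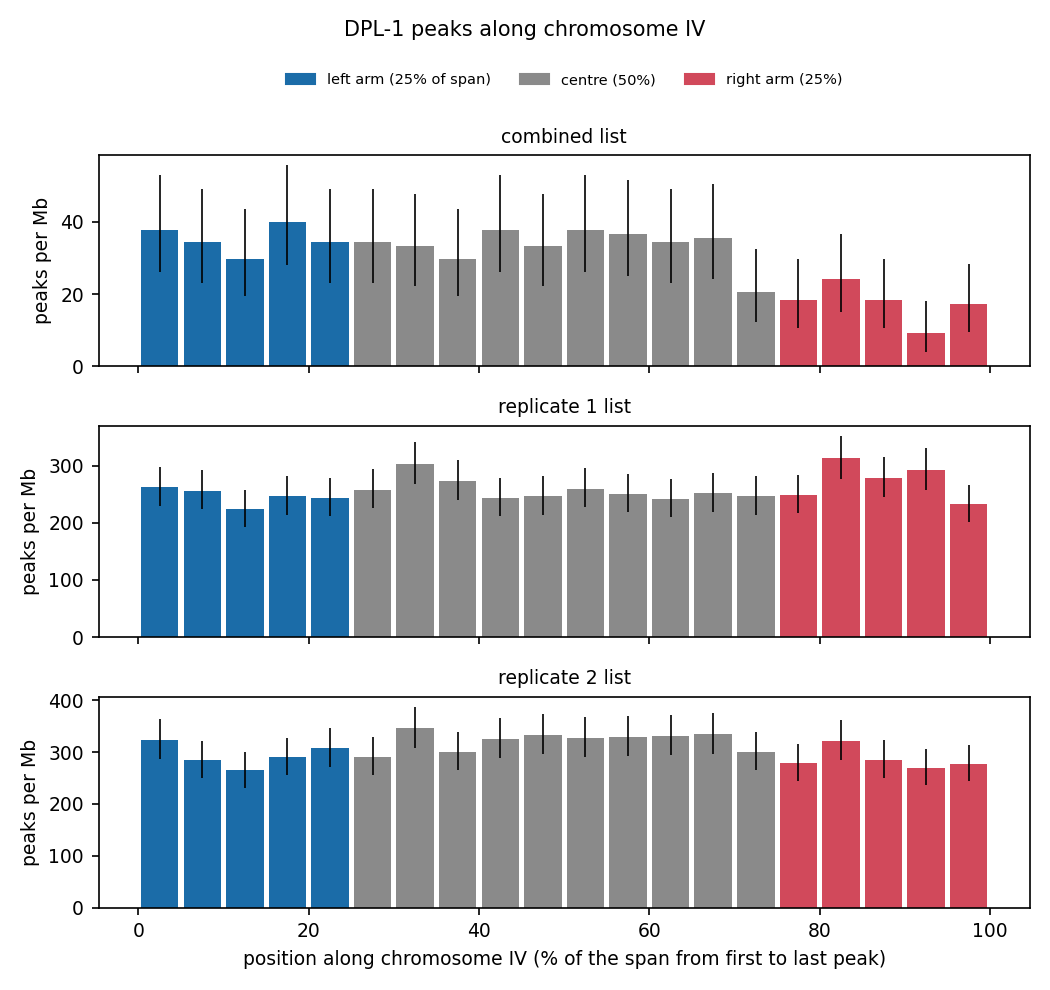
Peaks per Mb in 20 equal steps along the span of chromosome IV, for the combined list and both replicate lists. Bars are densities with 95% exact Poisson intervals, coloured by arm or centre. The last 6 steps of the combined list, at 9.16 to 24.04 peaks per Mb, lie below the first 14, at 29.8 to 40.07, while in the replicate lists the last 6 steps lie within the range of the others or, in replicate 1, reach above it. The split into 14 and 6 steps was placed at the observed drop.

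An uneven pair of arms was also found elsewhere. Chromosome II had the mirror image of IV, with a right arm at 0.97 (0.80 to 1.18) times the density of its centre and a sparse left arm. A left arm as full as the centre was not found on II, III or V. The ratio of left arm to centre was 1.06 on IV (95% exact interval 0.86 to 1.29), against 0.45 (0.34 to 0.58) on II, 0.51 (0.41 to 0.63) on III and 0.51 (0.40 to 0.66) on V. None of these 3 intervals overlapped that of IV. Chromosome I, with 0.85 (0.71 to 1.03), and X, with 0.78 (0.57 to 1.05), did overlap it, so the full left arm was not shown to be particular to IV. The right arm of IV resembled the sparse arms of those chromosomes. Its ratio of 0.52 to the centre was close to the 0.51 of the left arms of III and V, and its interval overlapped that of the right arm of V, at 0.42 (0.32 to 0.56). In all, 55.9% (51.5 to 60.2) of IV peaks lay in the centre, which makes up 50% of the span. The share was 56.02% on I, 58.5% on II, 60.5% on III and 51.4% on X, with intervals that overlapped that of IV, and 68.07% (63.5 to 72.4) on V.

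**Figure D2:**
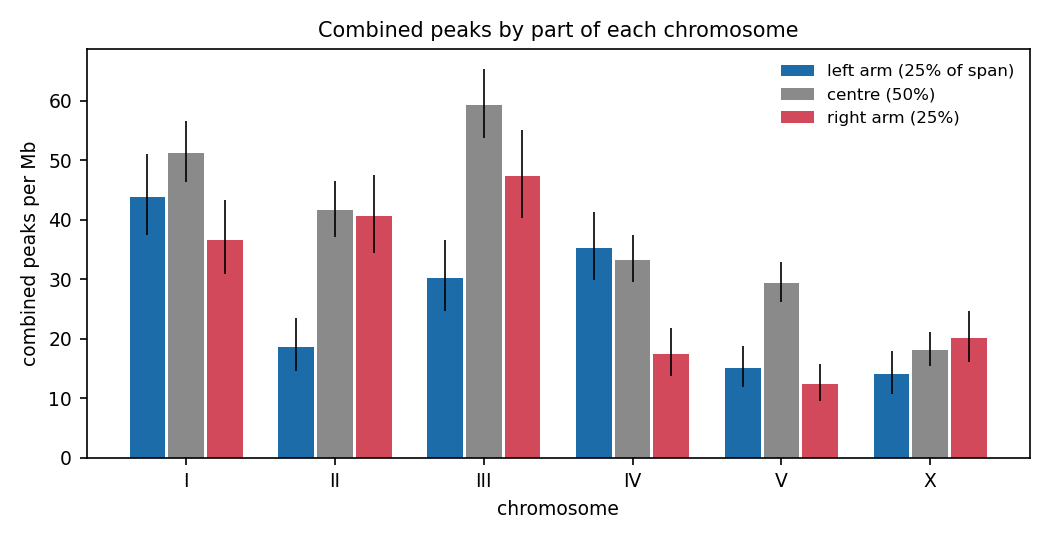
Combined peaks per Mb in the left arm, centre and right arm of each chromosome, with 95% exact Poisson intervals. On IV the left arm (35.3) stands level with the centre (33.3) and the right arm (17.4) is low, while on II and III it is the left arm that is low, and on V both arms.

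The low density of the right arm was seen among strong peaks. In the whole replicate lists the right arm was about as full as the rest. Replicate 1 had 246 peaks per Mb in the left arm (232 to 262), 257 in the centre (247 to 268) and 273 in the right arm (257 to 289), and the ratio of right arm to left arm was 1.11 (1.02 to 1.20). Replicate 2 had 294, 321 and 286 peaks per Mb, with a ratio of 0.97 (0.90 to 1.05). Peaks in these lists carry a number that orders them, and number 1 is read here as the strongest of its list. Among peaks numbered 1 to 1000, 26 of 161 in replicate 1 (16.1%, 10.8 to 22.8) and 25 of 164 in replicate 2 (15.2%, 10.1 to 21.7) lay in the right arm. Peaks numbered 1001 to 3195 gave 14.5% (11.1 to 18.4) and 14.08% (10.6 to 18.2). From number 3196 on, the share was close to or above the 25% of the span that the arm occupies. It was 25.5% (23.2 to 27.9) and 22.9% (20.6 to 25.4) up to number 10000, and 28.9% (25.8 to 32.1) and 26.5% (24.5 to 28.6) above number 20000.

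The left arm showed the opposite order. It held 34.8% (27.5 to 42.7) of replicate 1 peaks numbered 1 to 1000 and 22.5% (19.7 to 25.5) of those above 20000, and 32.3% (25.2 to 40.05) and 23.0% (21.07 to 24.99) in replicate 2. Peaks numbered 1 to 1000 stood at 12.8 per Mb in the left arm and 5.95 in the right arm in replicate 1, and at 12.1 and 5.72 in replicate 2. The intervals of the arms did not overlap in either list. In the combined list the 162 IV peaks numbered 1000 or lower fell as 57 in the left arm, 81 in the centre and 24 in the right arm.

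**Figure D3:**
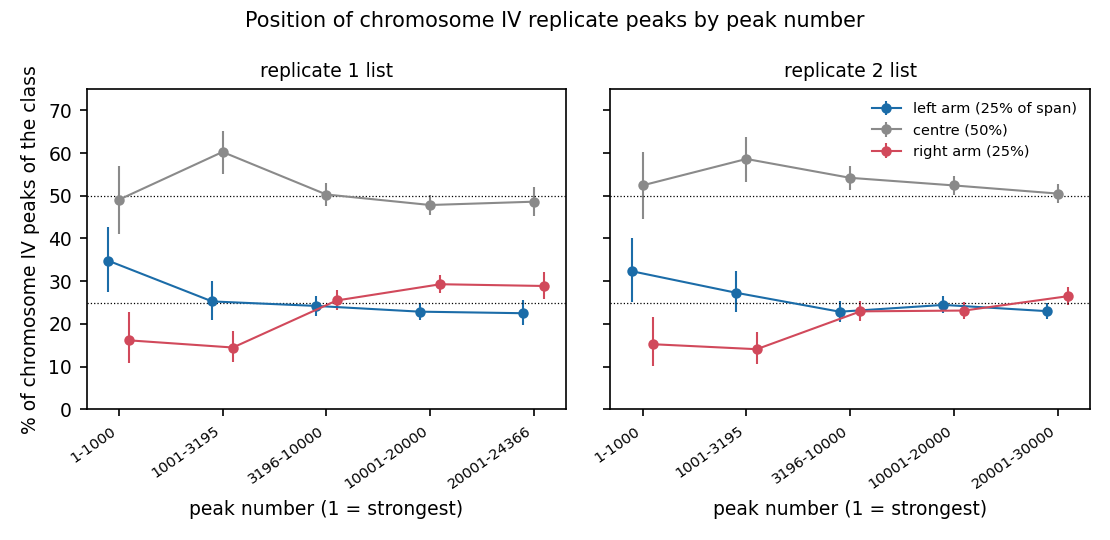
Share of chromosome IV peaks in the left arm, centre and right arm, by class of peak number, for each replicate list, with 95% exact binomial intervals. Dotted lines mark the 25% and 50% that the parts take of the span. The right arm holds 14.08% to 16.1% of the peaks in the 2 strongest classes and 22.9% to 29.3% in the others.

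Sparse arms on other autosomes were also fuller, relative to their centres, in the replicate lists than in the combined list. Besides the right arm of IV, 6 autosomal arms had a combined ratio to the centre whose interval lay below 1. In whole replicate lists the ratio of right arm to centre on IV was 1.06 (0.99 to 1.14) in replicate 1 and 0.89 (0.83 to 0.95) in replicate 2. The right arm of III, at 0.80 (0.66 to 0.96) in the combined list, had 0.99 (0.92 to 1.07) and 0.94 (0.88 to 1.01) in the replicate lists and overlapped IV in both. The other 5 lay below IV without overlap in both lists, at 0.66 to 0.84 in replicate 1 and 0.68 to 0.76 in replicate 2. They were the right arm of I, the left arms of II, III and V, and the right arm of V.

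Among the weaker 50% of replicate peaks this separation was partly lost. The ratio of the right arm of IV was 1.21 (1.10 to 1.34) in replicate 1, the left arm of III had 0.98 (0.88 to 1.10) and the left arm of V had 0.996 (0.903 to 1.10). The overlaps of IV with the left arms of III and V were both marginal. The left arm of II (0.68 to 0.87) and the right arms of I (0.77 to 0.97) and V (0.75 to 0.92) still lay below IV without overlap. In replicate 2 the ratio on IV was 0.98 (0.89 to 1.07), and its interval overlapped those of the left arms of II (0.75 to 0.92), III (0.73 to 0.91) and V (0.79 to 0.95). The right arms of I (0.68 to 0.84) and V (0.73 to 0.87) stayed below it. A sparse arm that fills up among weak peaks was thus not shown to be particular to IV. The authors' score on IV ran down to 0.005 in replicate 1 and 0.014 in replicate 2, against 1.69 in the combined list. How much of the weak peaks is background was not tested.

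The combined peaks themselves were of similar median strength in the 3 parts. The authors' score reached its ceiling in 413 of the 521 regions (79.3%, exact binomial interval 75.5 to 82.7), against 79.4% of all combined regions, so the peak number was used to order them. Of the IV regions, 31.1% (27.1 to 35.3) were numbered 1000 or lower, against 31.3% of all. The share was highest in the left arm, at 37.01% (29.4 to 45.2), against 27.8% (22.8 to 33.4) in the centre and 31.6% (21.4 to 43.3) in the right arm, with intervals that overlapped. Numbers in the left arm ran from 27 to 3195 with a median of 1541, in the centre from 11 to 3192 with a median of 1628, and in the right arm from 5 to 3173 with a median of 1809.5. The 95% intervals of these medians overlapped (1214 to 1814, 1487 to 1823 and 1162 to 2190). The medians stood in the same order by the numbers of the matching replicate peaks, at 1564, 1634.5 and 1734 in replicate 1 and 1453, 1698 and 1881 in replicate 2. The range of numbers was nearly the whole list in each part, while the count per Mb of the right arm was 0.49 times that of the left.

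The strongest region on IV lay in the sparse arm. It was number 5 of the combined list, at positions 14464043 to 14464401, and it ranked 7 in replicate 1 and 5 in replicate 2. At 359 bp it was also the widest on the chromosome. The region at 12724638 to 12724968, near the right edge of the centre, was number 11 and had numbers 6 and 17 in the replicates. The region at 17249706 to 17250026 in the right arm, was number 12, with numbers 23 and 6. All 3 lie beyond the 12 Mb position where peaks become few. Number 23, at 5183695 to 5184002 in the centre, had numbers 33 and 22. Number 27, at 4049535 to 4049892, was the strongest of the left arm and had numbers 19 and 38. The left arm had a further pair among the 10 strongest, which were number 43 (2676328 to 2676609) and number 62 (2177602 to 2177872). Those left in the centre were number 55 (5731637 to 5731957) and number 63 (12371896 to 12372216), and the right arm added number 69 (13240519 to 13240793). These 10 strongest regions were numbered 74 or better in replicate 1 and 69 or better in replicate 2. No gene is assigned to any region and no peak sequence is shown, since neither a genome nor an annotation of build WS220 was used here.

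Nearly every IV region had a match in both replicate lists, where a match is 1 bp or more shared. Replicate 1 matched 518 regions (99.4%, 98.3 to 99.9), against 99.6% of all combined regions, and replicate 2 also matched 518, against 99.2% of all. Since the combined list was built from these 2 libraries, the shares only describe it. Both lists matched 515 regions. With at least 50% of both intervals shared, the counts were 494 (94.8%, against 93.9% of all) and 482 (92.5%, against 91.1% of all). Matching varied little between the parts. At 50% shared, replicate 1 matched 94.8% of the left arm, 94.8% of the centre and 94.7% of the right arm, and replicate 2 matched 90.9%, 93.5% and 92.1%. Several replicate 1 peaks fell on 44 regions and several replicate 2 peaks on 23. The midpoints of a region and its strongest match lay a median of 7 bp apart in replicate 1 and 11.5 bp in replicate 2.

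The 6 regions that lacked a match all had combined numbers of 2371 or more and were scattered over the chromosome. Numbers 2371 and 2449 were nevertheless at the score ceiling. Replicate 1 had no peak on number 2929 (1310378 to 1310701), number 2870 (9670957 to 9671280) or number 2371 (14033709 to 14034032), which lie in the left arm, the centre and the right arm. Its nearest peaks lay 241, 633 and 68 bp away, and in replicate 2 these regions were numbers 1595, 1947 and 1307. Replicate 2 had no peak on number 3195 (3599161 to 3599484) in the left arm, or number 3029 (10499919 to 10500242) or number 2449 (12051032 to 12051355) in the centre. Its nearest peaks were 395, 1339 and 501 bp away, and in replicate 1 the regions were numbers 2337, 2372 and 1566. Number 3195 is the last peak of the whole combined list.

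The order of the regions was similar in the replicates for the strongest peaks and looser for weaker ones, most of all above number 2000. Over the 515 regions with both matches, Spearman's rho between the replicate numbers was 0.83, given as a description across regions of the same 2 libraries. It was 0.84 in the left arm, 0.82 in the centre and 0.82 in the right arm. Both numbers were within 2-fold of each other for 444 regions (86.2%), with a median ratio of larger to smaller of 1.30. The share was 94.5% for combined numbers 1 to 500, 97.2% for 501 to 1000, 89.7% for 1001 to 2000 and 75.6% above 2000. The widest disagreement was number 2494 at 5649145 to 5649468, which ranked 2043 in replicate 1 and 28503 in replicate 2. The opposite case was number 2657 at 4019903 to 4020226, with numbers 15074 and 1386. In replicate 1 its match lay 304 bp off at the midpoint, the largest offset of a replicate 1 match on IV. These 2 regions were chosen after their values had been seen.

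**Figure D4:**
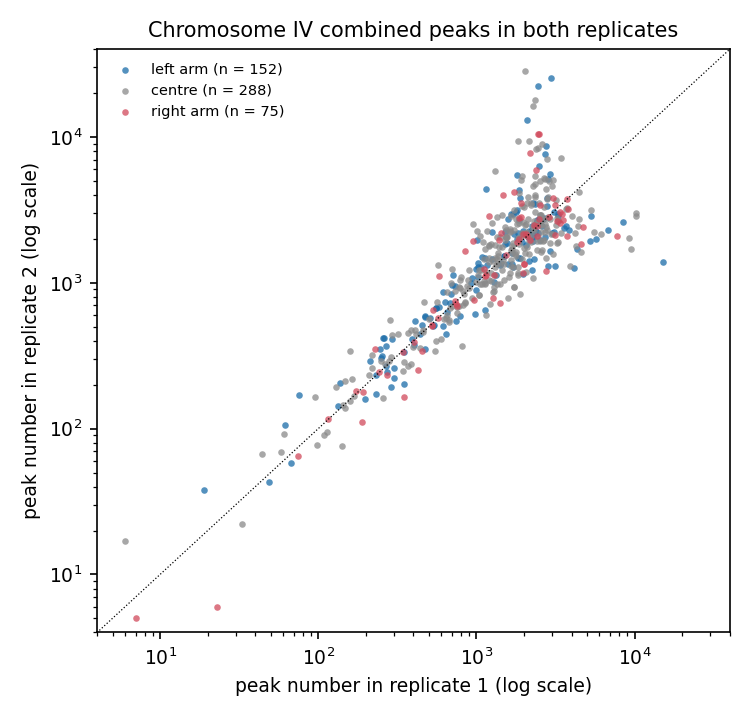
Peak number in replicate 1 against peak number in replicate 2, on log scales, for the 515 regions on chromosome IV matched in both lists, coloured by arm or centre. Points of all 3 parts follow the dotted line of equal numbers up to about number 1000 and fan out beyond it.

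Distances between neighbouring regions had a median of 17457 bp, with quartiles of 4472.5 and 45632 bp. The medians on II, III and V were 16416, 12564 and 24610.5 bp. The parts differed in the long distances and not in the short ones. The lower quartile was 4196 bp in the left arm, 4622 bp in the centre and 4364 bp in the right arm. The upper quartile was 42097 bp, 40164 bp and 74309 bp. Regions within 2 kb of another made up 27.9% of the left arm, 27.8% of the centre and 28.9% of the right arm, although the right arm had the fewest peaks per Mb. On the whole chromosome 146 regions (28.02%, 24.2 to 32.1) lay that close, against 23.4% of all combined regions.

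These close regions formed 64 groups, of which 47 had 2 members, 16 had 3 and 1 had 4. The group of 4 covered 3992 bp of the centre from 10933216 to 10937207, and its members were numbers 865, 994, 572 and 2548 from left to right. Neighbouring regions overlapped in 6 pairs. The closest pair shared 124 bp at 14786623 to 14787146 in the right arm, as numbers 1889 and 2825, and both met the same peak in replicate 1 (number 1987) and in replicate 2 (number 1340). A chain of 3 overlapping regions, numbers 426, 514 and 727, ran from 3050334 to 3051011 in the left arm and made up 2 of the 6 pairs.

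**Figure D5:**
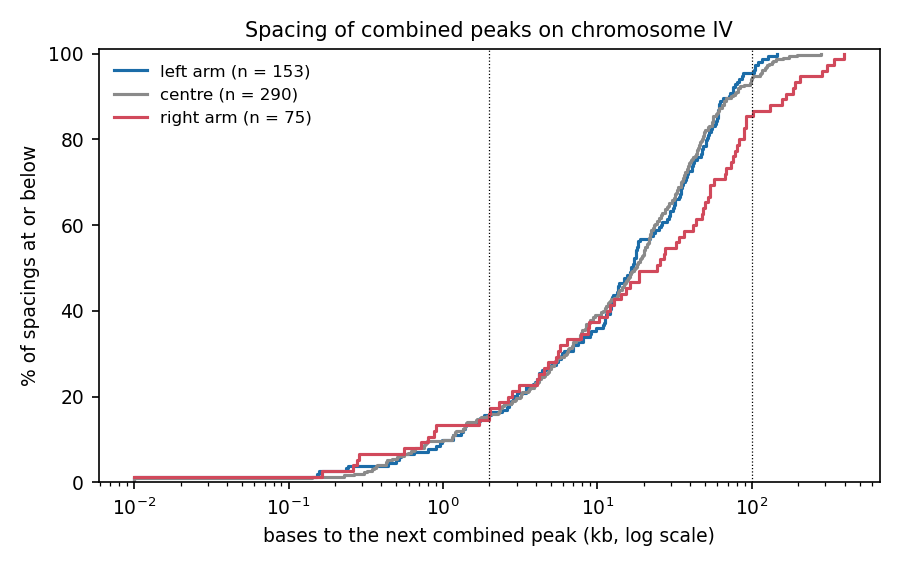
Cumulative share of distances from 1 combined peak to the next on chromosome IV, on a log scale in kb, for neighbours within the same arm or centre, with overlapping neighbours drawn at the left edge. Dotted lines mark 2 kb and 100 kb. The 3 curves run together up to about the lower quartile of 4196 to 4622 bp, and above 17 kb the right arm falls behind.

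Long stretches without combined peaks were more common on the right. Gaps of 100 kb or more numbered 36 on the chromosome, with 7 in the left arm (814 kb in all), 17 in the centre (2390 kb) and 12 in the right arm (2581 kb), although the centre is the longest part. Of these 12, 11 had both ends in the right arm. The remaining gap crossed the edge to the centre and was counted whole in the right arm. Of the 5 longest gaps, 4 lay in the right arm. The longest was 397.8 kb, from 15984500 to 16382294, and the others in that arm were 342.8 kb from 15039849 to 15382608, 308.5 kb from 13395551 to 13704084 and 287.1 kb from 15697087 to 15984175. The fifth, of 280.5 kb, was in the centre from 4810701 to 5091194. The first and the fourth gap were parted by a single weak region, number 3061 at 15984176 to 15984499, which ranked 2504 in replicate 1 and 10480 in replicate 2. Together they ran for 685.2 kb. A strong region stood at the left edge of the second gap, number 141, with numbers 188 and 111 in the replicates.

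The gaps were not empty in the replicate lists. Replicate 1 had 96 peaks in the longest gap, or 241 per Mb, and replicate 2 had 102, or 256 per Mb. Over the 5 gaps the densities ran from 216 to 303 per Mb in replicate 1 and from 239 to 279 in replicate 2. The whole chromosome had 259 and 306 per Mb, so in replicate 2 all 5 gaps lay below it, and in replicate 1 the gap with 303 was the exception. Those whole counts include replicate peaks that match combined regions, and gaps were chosen to hold no combined region. Replicate peaks off the combined list stood at 227 and 275 per Mb on the chromosome, inside the range of the 5 gaps in both lists. In replicate 2 only the gap with 279 per Mb lay above that value. In the right arm alone, peaks off the list stood at 254 per Mb in replicate 1 and 268 in replicate 2. The peaks in the gaps were weak, which also follows in part from that choice. The strongest ranked 2725 in replicate 1 and 2245 in replicate 2, both in the gap in the centre. In the longest gap, 25 of the 96 replicate 1 peaks shared a base with a replicate 2 peak.

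By windows of 100 kb, 24 of 175 held no combined peak, and 16 of these 24 lay in the right arm, where they made up 36.4% of its 44 windows. The left arm had 2 empty windows of 44 and the centre 6 of 87. Every window held peaks of both replicate lists, and the empty ones held 10 to 32 in replicate 1 and 8 to 38 in replicate 2. Their medians were 21.5 and 24.5 peaks, below the 25 and 31 over all windows. Lower counts follow in part from the choice of windows without combined peaks, since replicate peaks that match combined regions are missing there.

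The fullest windows all lay outside the right arm. The window from 2600001 to 2700000 in the left arm and the one from 4400001 to 4500000 in the centre held 12 combined peaks each. In the first, the numbers ran from 43 to 3159 with a median of 1842, and 4 were 1000 or lower. Of its 12 peaks, 10 lay within 2 kb of another, in 2 groups of 3 and 2 of 2. The window from 4000001 to 4100000 held 10, and those from 4700001 to 4800000 and from 11500001 to 11600000 held 9 each. These 5 windows had 30 to 41 peaks in replicate 1 and 38 to 44 in replicate 2. No window of the right arm held more than 6 combined peaks.

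Widths followed the peak number. The most common width was 324 bp, found in 386 regions (74.1%), and the others were 82 to 359 bp. None of the 91 regions numbered 1 to 500 had the width of 324 bp. It was found in 43.7% of those numbered 501 to 1000, in 98.1% up to 2000 and in 99.5% above. The median width was 265.5 bp for numbers 1 to 250, 222 bp for 251 to 500 and 183 bp for 501 to 1000, so width did not simply fall or rise with strength. Over all chromosomes the same classes had 270.5, 212.5 and 178.5 bp. The narrowest region on IV, of 82 bp at 2219565 to 2219646, was number 670.

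Most replicate peaks on IV had no counterpart in the combined list. Those off the list were 3964 in replicate 1 (87.8%, 86.8 to 88.7) and 4809 in replicate 2 (90.04%, 89.2 to 90.8), against 86% and 89% of the peaks of all chromosomes. The share on IV lay above those of I, II and III and below those of V and X in both lists. On V it was 88.97% (88.0 to 89.9) in replicate 1, which overlapped IV, and 91.9% (91.1 to 92.6) in replicate 2, which did not. The share off the list was highest in the right arm, at 93.3% (91.7 to 94.6) in replicate 1 and 93.7% (92.2 to 95.0) in replicate 2, against 85.1% (82.9 to 87.2) and 87.8% (85.8 to 89.5) in the left arm. That restates the low density of combined peaks in the right arm, since whole replicate lists were about evenly spread, and is not a separate result. Peaks off the list that still shared a base with the other replicate had similar densities in all parts. Their density was 67.8 per Mb in the left arm, 74.8 in the centre and 70.5 in the right arm in replicate 1, and 65.7, 74.5 and 71.0 in replicate 2. As a share of replicate 1 peaks off the list, they were 32.3% (29.3 to 35.5) in the left arm and 33.7% (31.6 to 35.9) in the centre. The right arm had 27.7% (25.1 to 30.5), below the centre without overlap. In replicate 2 the shares were level, at 25.5%, 25.9% and 26.5%. The strongest peak off the list was number 1892 in replicate 1, at 9513487 to 9513830, which replicate 2 did not match, and number 1766 in replicate 2, at 2993340 to 2993623, which replicate 1 did match.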

How the data were processed

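Peaks were deposited by the authors as intervals whose coordinates follow WormBase WS220, per the file headers, with SPP (a peak caller) and IDR (irreproducible discovery rate) named in the method column. The sources used here do not give the aligner, the thresholds or how the combined list was made. For each peak the deposited files hold a score, whose scale no header explains and which has a ceiling, and a number that orders its list. Low numbers were read as strong. Below the ceiling the number did not always follow the score: combined number 2556 on IV scored 3.23 and number 2728 scored 3.26. Samples were grouped by title.

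Positions were assigned by midpoint, matches needed 1 bp shared, and the strongest of several matches gave the number. Shares have exact (Clopper-Pearson) intervals, densities exact Poisson intervals, and ratios of densities the exact conditional binomial interval, all at 95%. Peaks are not replicates, so no p-value was computed. Regions named are the 10 strongest, those unmatched, the 5 longest gaps, the 5 fullest windows and the extremes of position, width and spacing, and any other was named after its values were seen. The members and lists were chosen with earlier results of these data known. Interval calculations were tested on simulated data. Python 3.11.15, numpy 2.4.6, pandas 2.3.3, scipy 1.17.1 and matplotlib 3.10.9 were used. The RefSeq gene table at hand, of assembly WBcel235, gave only the chromosomes of the transgene's genes.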

Additional observations from a re-analysis of the deposited data

How the results depend on the processing

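No paired analysis was possible because no result compares groups of samples: peaks exist for ChIP only, and the inputs were not analysed here. Of 28 alternatives to 10 values, 18 stayed within the interval of the main value and 10 moved outside it. A turn of direction was defined only for the density ratio of right to left arm, where 0 alternatives turned it. Those alternatives used combined peaks or strong replicate peaks. The whole replicate 1 list, which was not among them, had a ratio of 1.11 (1.02 to 1.20). The density ratio of right to left arm was lowest, at 0.46, among the stronger 50% of combined peaks and highest, at 0.53, with the top 3195 peaks of replicate 1 in its place, and the share in the centre from 54.6% to 56.9%. The middle 33.3% of the span held 39.3% of the regions. The share matched in replicate 1 and replicate 2 was 94.8% and 92.5% with 50% reciprocal overlap, 100% and 100% for the stronger 50% of the list, and 90.2% and 86.6% against the top 3195 peaks of the replicate. The median spacing was 23319 bp once regions within 2 kb were merged. Replicate peaks off the combined list were 88.95% and 90.96% with 50% reciprocal overlap. By construction, a stricter overlap or a shorter list leaves fewer matches to find. Read depth is unknown, so the lack of a peak does not show that DPL-1 was not bound there.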
